A study of Danio rerio with 24 samples.

Results

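Among the genes that zebrafish heart ventricle expresses most, a small set carries no gene symbol in the deposited table and is listed only under the name of the clone or sequencing project in which it was first found. These abundant clone-named genes were chosen by their name, which begins with si:, zgc:, wu:, sb: or im: whatever the case, and by the authors' mean normalized read count, which had to be 2000 or more. The rule gave 30 genes, out of 2933 clone-named genes and 18987 listed genes in all. Since the mean count chose the members, their counts are given as a description and were not tested.

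RNA was sequenced from heart ventricles of adult wild-type zebrafish, with 3 or 4 ventricles pooled per sample. The cryoinjured fish, whose ventricle was lesioned with a cold probe, were either exercised by swimming or non-exercised and were sampled at 7 or 14 days post injury (dpi), with 4 samples in each of these groups. A further 8 samples came from non-exercised, sham-operated fish at 7 and 14 dpi, with 4 at each time. Whether these sham samples entered the mean counts given below is not known. The deposited table gives 1 mean count per gene over the samples that the authors modelled, and it has 0 columns of per-sample values. The spread over samples, the depth of each sample and the level in each group are therefore unknown. The contrasts between exercised and non-exercised fish that the authors computed were not used here.

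The names themselves come from genome and cDNA projects. A name beginning with si: marks a gene annotated on a sequenced genomic clone at the Sanger Institute, and one beginning with zgc: a full-length cDNA of the Zebrafish Gene Collection. Such a name says nothing about function: it stays in use until a gene is matched to a family or a relative in another species. The ventricle is built mainly of cardiomyocytes and also holds blood, endothelium, epicardium and immune cells, and its most abundant RNAs are those of the contractile apparatus and of energy production.

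Among the markers of the labelled tissue, the highest counts were those of heart muscle genes, but not every heart muscle gene exceeded the other markers. The red cell genes hbaa1 (25133) and ba1 (22173) lay above tnni1b (22029.8). The ventricular and cardiac muscle genes vmhc, myl7, tnnt2a, actc1a, cmlc1 and tnni1b had mean counts between 22029.8 and 163295. The atrial myosin myh6 had 3281 and elnb, an elastin gene of the bulbus arteriosus, had 335.1. The red cell genes hbaa1, ba1 and alas2 lay between 4339 and 25133, and the endothelial genes kdrl, fli1a and cdh5 between 1017 and 3550. Epicardial tcf21, tbx18 and wt1b lay between 111.9 and 250.2, and the neutrophil genes mpx and lyz at 16.3 and 43.2. The macrophage gene mpeg1.1 had 234.9, and the 12 entries listed as mfap4, also a macrophage marker, had a summed mean count of 409.8. The markers ttn.2 and hbba1 were not found under these names. These are read counts that were not divided by transcript length, so that the order of genes given here is an order of reads, not of RNA molecules.

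The abundant clone-named genes held 2.67% of the summed mean counts of all genes (316295 of 11824275), and 58.9% of the sum of all clone-named genes. Their median mean count was 3372, against 15.0 for all clone-named genes and 79.6 for all listed genes, a difference that the rule itself sets. The counts were unevenly spread. The 2 highest members took 52.6% of the members' sum, and 5 members reached 10000, 8 more reached 5000, and 12 lay under 3000.

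The highest count belonged to si:dkey-153m14.1, with a mean of 97543, the rank of 13 among all genes and 0.825% of all counts. The Ensembl gene names still list it under its clone name, and it had no match in RefSeq, so that its product is not named here. The second, zgc:158463, had a mean count of 68893 (rank 20), and RefSeq lists it as a ribosomal RNA gene. Ribosomal RNA forms the core of the ribosome and, as a rule, has no poly-A tail. The libraries were prepared by poly-A capture, and this was the only rRNA gene among the listed genes that matched RefSeq by name. A further 3265 listed genes had no match and so no RefSeq gene type, and any rRNA genes among them would not be seen. The second member had 3.98 times the count of the third, the widest gap between neighbours in the order of the 30 genes.

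**Figure D1:**
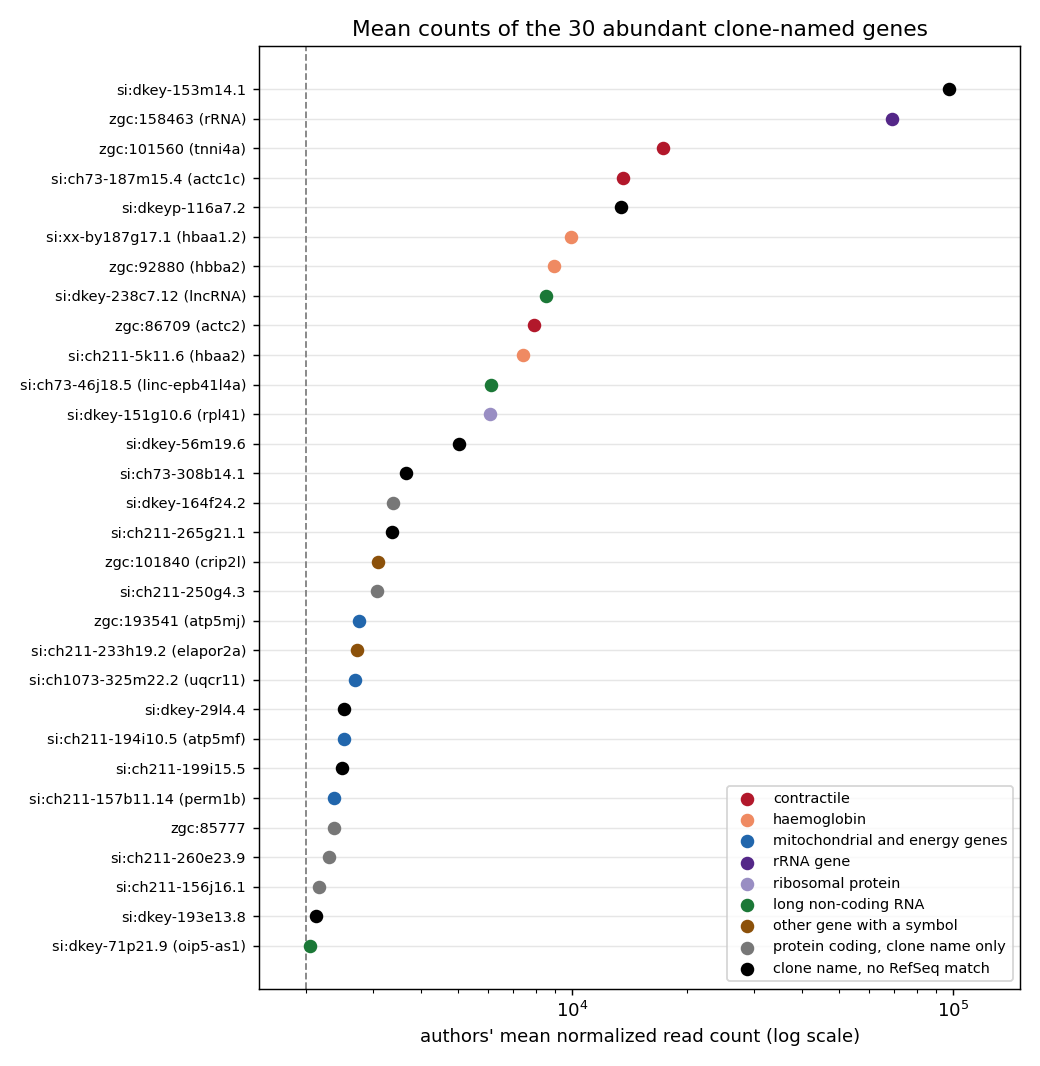
Mean counts of the 30 abundant clone-named genes, 1 point per gene, with the authors' mean normalized read count on a log axis. Brackets hold a current symbol or a RefSeq synonym, or the gene type for zgc:158463 and si:dkey-238c7.12. The dashed line marks the minimum of 2000. The 2 highest genes, at 97543 and 68893, stand apart from the next, at 17317.

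Many of these genes have since received a symbol. The Ensembl gene names gave 12 of the 30 members (40.0%) a symbol that is not a clone name, against 465 of the 2903 other clone-named genes (16.0%). Those other genes had a median mean count of only 14.5. Among the clone-named genes with mean counts between 1000 and 2000 the share was 46.7%, above that of the members. RefSeq (assembly GRCz12tu) matched 21 members (70.0%) by symbol or synonym, against 50.1% of the other clone-named genes. With the synonyms of RefSeq counted, 15 members could be assigned a gene symbol, and these held 30.2% of the members' counts. The symbols differ between the tables for 4 members: zgc:92880 is HBE1 in the Ensembl names and hbba2 in RefSeq, and zgc:86709 is ACTC1 in the first and actc2 in the second. Likewise, zgc:101840 is CRIP2 in the Ensembl names and crip2l in RefSeq, and si:ch211-233h19.2 is ELAPOR2 in the Ensembl names and elapor2a in RefSeq. The zebrafish symbols of RefSeq are used here where there is one.

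The description column of the deposited table was empty for 28 of the 30 members (93.3%), close to the 90.2% of the other clone-named genes. Among the 706 other genes with a mean count of 2000 or more, 11.9% had no description. The 2 described members were zgc:92880, described by haemoglobin subunits, and si:ch211-233h19.2, described as KIAA1324-like. Among the 30 clone-named genes with mean counts between 1000 and 2000, just below the members, the share without a description was lower, at 63.3%.

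Clone names became rarer as counts rose. They were carried by 35.6% of the genes with a mean count under 10, by 17.2% between 10 and 100, by 6.28% between 100 and 1000 and by 4.42% between 1000 and 2000. Above the minimum the share was 4.13% up to 10000 and 3.85% beyond, the 30 members being 25 of 606 and 5 of 130 genes. The share of clone-named genes with another symbol in the Ensembl names ran the other way, with 11.3%, 16.4%, 25.8% and 46.7% in the 4 lower bins. In both bins of the members it was 40.0%, with only 5 genes in the upper one. No test was made of these shares, since the counts were used to choose the members.

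**Figure D2:**
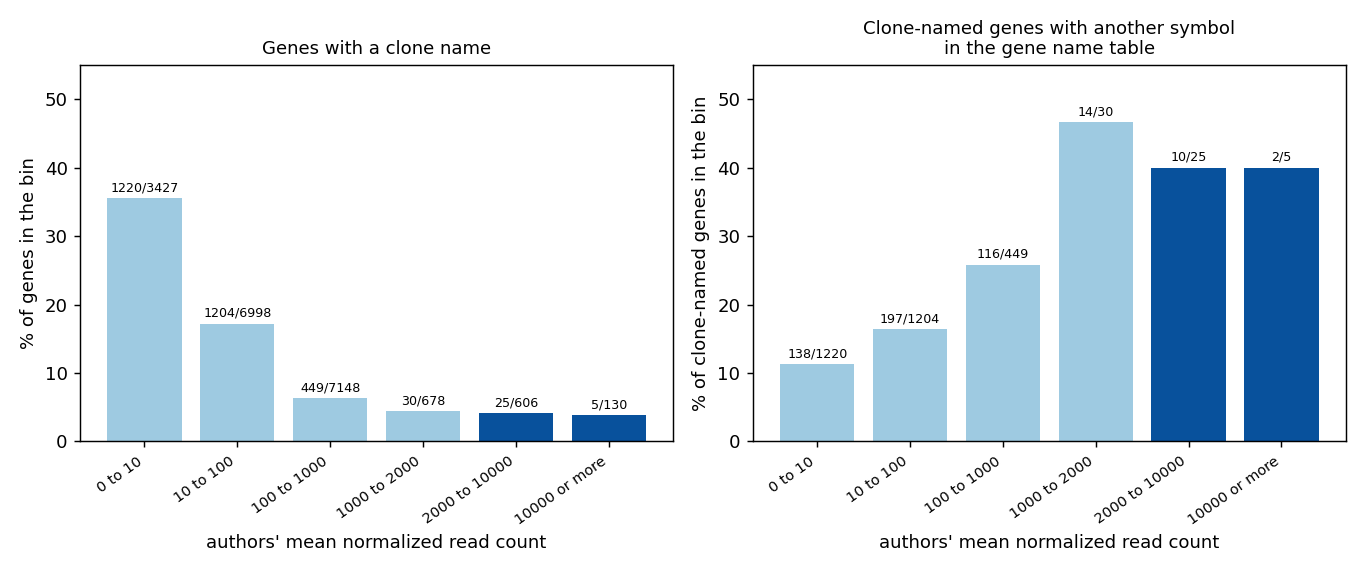
Left, share of genes with a clone name by bin of the authors' mean normalized read count; right, share of the clone-named genes to which the Ensembl gene names give another symbol. Dark bars are the 2 bins that hold the 30 members, and the numbers above the bars are the genes behind each share. The left share falls to 3.85% in the highest bin, and the right one is 40.0% in both dark bars.

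Of the 21 members that matched RefSeq, 17 were protein coding, 3 were long non-coding RNAs and 1 was the rRNA gene. The long non-coding share, 14.3% of the matched members, stood beside 6.81% in the other clone-named genes and 0% of the 680 matched genes of the same abundance that carry a symbol. Of the 9 members without a RefSeq match, 1 has a symbol in the Ensembl names (actc1c for si:ch73-187m15.4). The other 8 are known by clone name only.

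Contractile genes were the protein-coding group of known function with the most reads, with 12.3% of the members' counts in 3 genes. The gene zgc:101560, now tnni4a, had a mean count of 17317 (rank 65). It encodes a troponin I, the subunit that holds back the interaction of actin and myosin while calcium is low. Of the 8 troponin I genes found by symbol, it ranked second, after tnni1b with 22029.8, and the remaining 6 had mean counts of 199.3 or less. This clone-named gene thus carried 43.5% of the summed counts of these 8 genes. Genes that are not members were searched by their deposited names only. A relative among them under a clone name would be missed, here and in the families below. Since members were chosen for a high count, their ranks and shares within families are not independent of the rule.

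The other contractile members were cardiac actins, the thin filament protein of heart muscle. The actc1c gene (si:ch73-187m15.4) had a mean count of 13607 and actc2 (zgc:86709) had 7912. The paralog actc1a had 55798 and actc1b had 175.6, so that the 2 clone-named genes held 27.8% of the counts of these 4 actin genes. Actin genes are close to each other in sequence. The submitters' processing notes name the program HTSeq 0.6.0. Whether reads shared by paralogs were divided between genes or left out of the counts was not examined here. The counts of these paralogs, and of the haemoglobin genes, are uncertain to that extent.

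Haemoglobin, the oxygen carrier of red cells, was represented by 3 members with 8.30% of the members' counts. The alpha globin gene si:xx-by187g17.1, for which RefSeq gives the synonym hbaa1.2, had a mean count of 9901. The beta globin gene hbba2 (zgc:92880) had 8961 and the alpha globin gene hbaa2 (si:ch211-5k11.6) had 7406. They held 34.6% of the counts of 7 globin genes found by symbol, of which hbaa1 and ba1 had more, with 25133 and 22173. The gene ba1l had 2315, and hbbe1.1, an embryonic beta globin, had 0.274. In RNA of whole ventricles, a difference in the number of red cells and one in their RNA content cannot be told apart.

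These globin genes lie together in the reference. In the order of GRCz12tu, among genes that the table lists, nprl3 is followed by hbaa2, hbba2, ba1l, hbaa1, ba1 (hbba1 in RefSeq), si:xx-by187g17.1, hbbe1.1 and kank2. The 3 clone-named globins are thus members of 1 cluster with 6 adult-type genes. The rule itself set these 3 above 2000. The other 3 adult-type genes, hbaa1, ba1 and ba1l, had mean counts of 25133, 22173 and 2315. The genes bordering the cluster had 93.2 (nprl3) and 1062 (kank2). Across the 21 placed members, 39 neighbouring listed genes were not members themselves, and their median mean count was 131.0. It was 106.2 over all 15198 placed RefSeq genes, with 1 listed gene taken for each. Of these 39 neighbours 2 reached 2000, both of them globin genes, while 4.51% of all placed genes did. Apart from the globin pair hbaa2 and hbba2, none of the 21 placed members had another placed member as its neighbour. Members without a RefSeq match had no position and could not be seen here.

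Genes of mitochondria and energy production made up 4 members, with mean counts within a narrow range of 2363 to 2754. The genes atp5mj (zgc:193541) and atp5mf (si:ch211-194i10.5), small membrane subunits of the ATP synthase, had 2754 and 2509. They ranked 14 and 15 among 20 genes listed under ATP synthase symbols, whose highest were atp5b with 57876 and atp5a1 with 39675. The gene si:ch1073-325m22.2, for which RefSeq gives the synonym uqcr11, had 2684. It encodes a small subunit of respiratory complex III and ranked 4 of 9 genes under complex III symbols, between uqcrc2b with 6280 and uqcrh with 2364. The perm1b gene (si:ch211-157b11.14) had 2363. In mouse, Perm1 is known as a muscle regulator of genes for mitochondria and oxidative metabolism.

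A ribosomal protein gene was also among the members. RefSeq lists si:dkey-151g10.6 with the synonym rpl41, the gene of a very short protein of the large ribosomal subunit. Its mean count was 6079, the rank of 35 among 80 cytosolic ribosomal protein genes, whose median was 5623. By read count, which was not divided by transcript length, it lay near the middle of its family. Its place by number of RNA molecules is not known.

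**Figure D3:**
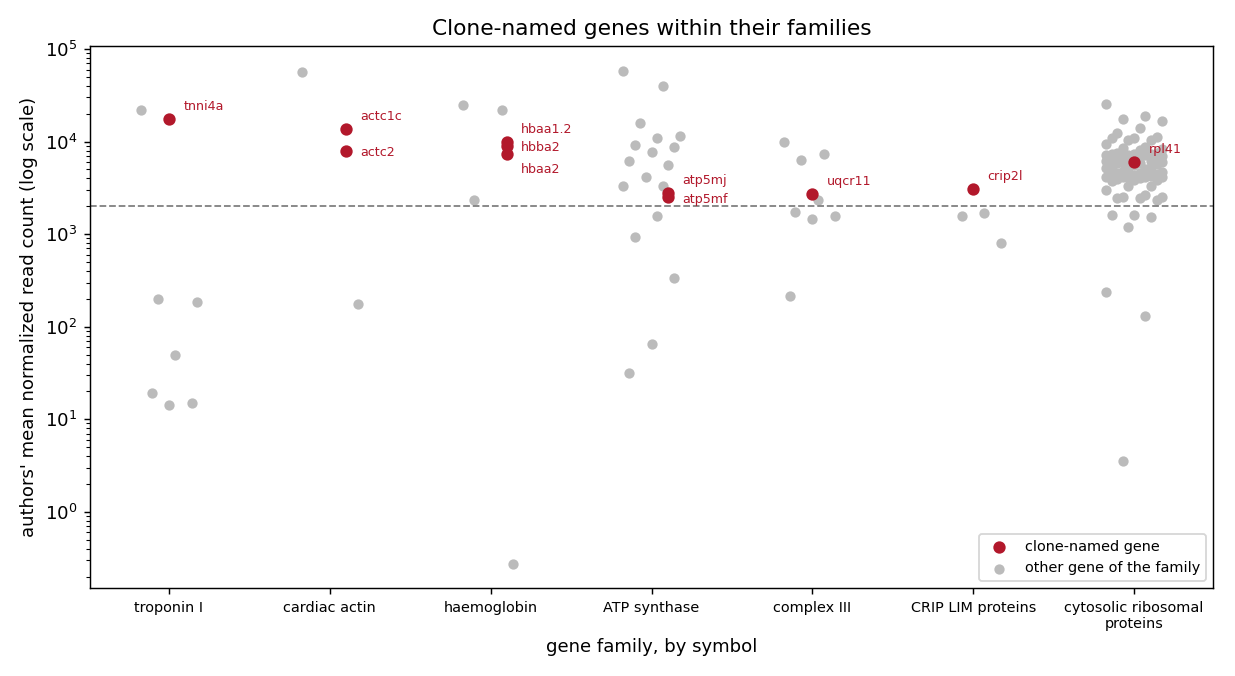
Clone-named members (red, labelled by current symbol or RefSeq synonym) and the other genes found under the same family symbols (grey). The axis is the authors' mean normalized read count on a log scale. The dashed line is at 2000. Counts were not divided by transcript length. The tnni4a point, at 17317, is close to tnni1b at 22029.8 and far above the other troponin I genes, while rpl41 lies amid the ribosomal protein genes.

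The 3 long non-coding RNAs held 5.28% of the members' counts. The gene si:dkey-238c7.12 had a mean count of 8528 (rank 160), and RefSeq gives it no functional name. The gene linc-epb41l4a (si:ch73-46j18.5), also known as libra, had 6119. In zebrafish it is known to direct the degradation of a microRNA. It follows srsf9 and precedes epb41l4a in the reference order, and these 2 genes had mean counts of 132.8 and 118.1. The third, oip5-as1 (si:dkey-71p21.9), had 2049.5. It is a conserved RNA known from mouse to promote the loss of a microRNA, and its neighbour oip5 had 8.91.

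A further 2 members have symbols. The gene crip2l (zgc:101840) had a mean count of 3078 and encodes a protein related to CRIP2, a LIM domain protein. Its count was above those of crip2 with 1706, crip1 with 1575 and crip3 with 799.4, at 43.0% of the sum of these 4 genes. The gene elapor2a (si:ch211-233h19.2) had 2721. No other gene was found under that family's symbols by its deposited name.

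The remaining members have no known function in the tables used. RefSeq lists 5 of them as protein coding under their clone names, with mean counts of 3387 for si:dkey-164f24.2, 3073 for si:ch211-250g4.3, 2361 for zgc:85777, 2295 for the si:ch211 clone gene ENSDARG00000102572 and 2155 for si:ch211-156j16.1. These 5 held 4.20% of the members' counts. Another 8, with no RefSeq match and a clone name in the Ensembl list, held 41.1%, of which si:dkey-153m14.1 made up the most. Without it this group still held 10.3% of the members' counts. After it came si:dkeyp-116a7.2 with 13417 (rank 88) and si:dkey-56m19.6 with 5034. The rest were si:ch73-308b14.1 with 3664, si:ch211-265g21.1 with 3358, si:dkey-29l4.4 with 2515, si:ch211-199i15.5 with 2482 and si:dkey-193e13.8 with 2128.

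At the lower end the set had no natural border. The 3 members just inside the minimum were si:ch211-156j16.1 with 2155, si:dkey-193e13.8 with 2128 and si:dkey-71p21.9 with 2049.5. The 3 clone-named genes just outside were si:ch1073-429i10.3 with 1971, si:ch211-222l21.1 with 1936 and zgc:153867 with 1927, which the table describes as a myosin light chain. Of the 5 prefixes of the rule only si: and zgc: were represented, with 23 and 7 members. Among all listed genes 22 begin with wu:, 15 with im: and 1 with sb:, and none of these reached 2000.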

How the data were processed

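RNA of pooled ventricles was sequenced by the authors and compared with the zebrafish genome GRCz10. The submitters' processing notes name TopHat2 2.1.0, HTSeq 0.6.0 and DESeq2. The deposited mean counts are a signal that is never negative, the mean over the modelled samples of read counts divided by size factors. Which samples were modelled is not given in the sources used here. For sequencing, the paper's methods describe exercised and control pools of cryoinjured fish at 7 and 14 dpi only. The means may therefore not include the sham-operated samples. The other 7 numeric columns hold the authors' comparisons (log2 fold change, its standard error, statistic, p-value, adjusted p-value, and fold changes at 7 and 14 dpi) and were not used.

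Members were selected by name and mean count, and families by symbol, with earlier results of these data known. For the families only members were given their current symbol or RefSeq synonym, and all other genes kept their deposited name. Every member is given by its name, or for 1 of them by its Ensembl gene ID, with its relatives by symbol, the markers and the genes next to the minimum. Symbols came from Ensembl gene names matched by gene ID and from RefSeq (GRCz12tu) matched by symbol or synonym. RefSeq matched 15722 of 18987 listed genes (82.8%), at 15198 distinct RefSeq genes. For the order of neighbours, 1 listed gene was kept for each RefSeq gene. RefSeq gives gene spans and no transcript lengths, so counts were not divided by length. The alternatives were other minimums, prefixes and sums. The selection was tested on simulated data. Python 3.11.15 was used with pandas 2.3.3, numpy 2.4.6 and matplotlib 3.10.9.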

Additional observations from a re-analysis of the deposited data

How the results depend on the processing

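The number of abundant clone-named genes depended on the minimum. With a minimum of 1000 it was 60 and with a minimum of 5000 it was 13, against 30. Limiting the names to si: and zgc:, or to lower case, left it at 30, and adding genes named by a sequence accession gave 34. The share of all counts was 3.03% and 2.29% with these minimums, against 2.67%. It was 3.45% with the 10 most abundant genes left out of the sum. By alternatives chosen after seeing the data, it was 2.09% without zgc:158463, the gene matched to an rRNA, and 1.27% without the 2 highest members. The planned comparison of proteins with named relatives and the order of counts per length were not run, as no protein sequences or transcript lengths were used here. No replicate could be left out, and no depth or spread per sample was known. No paired analysis was possible because the table has no per-sample values.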

Other observations

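A further 4 genes with a mean count of 2000 or more carry a sequence accession in place of a name. What kind of sequence each accession stands for was not looked up. They were AC024175.4 with 455138 (rank 2, 3.85% of all counts), CR735126.1 with 12771, AC024175.17 with 10169.5 and CABZ01076275.1 with 4574. None of them had a symbol in the Ensembl names or a match in RefSeq, and none had a description.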
